A study of Mus musculus with 2 samples.

Results

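The chondroitin sulfate proteoglycans and tenascins described here were 9 genes of 32285 in the count matrices. They form a fixed list, chosen with earlier results of these data known. Aggrecan (Acan), brevican (Bcan), neurocan (Ncan) and versican (Vcan) are the lecticans, secreted core proteins that carry chondroitin sulfate chains and bind hyaluronan. Cspg4 (NG2), Cspg5 (neuroglycan C) and Ptprz1 (a receptor tyrosine phosphatase, also called phosphacan in its secreted form) are membrane proteoglycans. Tenascin-R (Tnr) and tenascin-C (Tnc) are large glycoproteins that lecticans bind.

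In the central nervous system these proteins form a mesh with hyaluronan and link proteins, and around some neurons they condense into perineuronal nets. Chondroitin sulfate chains bind neuronal receptor phosphatases and slow the growth of axons, and several of these proteins are known to build up around a spinal cord injury. NG2 is a classical marker of oligodendrocyte precursor cells (OPC), and tenascin-C is a known product of reactive astrocytes and fibroblasts.

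The series used single-nucleus RNA sequencing of spinal cord from male iNeuroD1GFP mice, labelled 8 weeks old, to ask about conversion of glia to neurons by NeuroD1. All tissue shared the genotype, a spinal cord injury at postnatal day 60, TAM (the usual abbreviation of tamoxifen) at 100 mg/kg/day on days 5 to 8 after injury, and collection on day 10. Neither library is an uninjured, untreated or NeuroD1-free control. The lesion core and the remaining region (distal in the design text, peri-injury in the protocol) gave 1 library each. The design lists 3 mice; their pooling and the promoter of the transgene are not given in the sources used here.

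The core library held 16362 barcodes and 30469263 UMIs (unique molecular identifiers, each counting 1 captured RNA molecule), and the distal library 7452 barcodes and 19049572 UMIs. Median depths were 1303 and 1743 UMIs per barcode, and 38 barcode sequences occurred in both. With 1 library a region nothing has a replicate, so no test between regions was possible, and the 95% intervals cover counting error only. Nuclei were grouped without using the 9 genes. The distal library gave 337 OPC-like, 110 committed-precursor-like, 1743 oligodendrocyte-like, 596 astrocyte-like, 1964 neuron-like and 414 fibroblast-like nuclei. The core library stood apart: it gave 3, 25, 5, 51, 8847 and 79 of these, and 6180 of its 16360 kept barcodes lay in a background-like cluster in which barcodes differed little from draws of a single profile, with neuron markers at a sum of 13378 CPM (UMIs per 1000000 UMIs) against 13394 CPM in core neurons. "Mixed" clusters, which carry markers of a further class, held 1099 core and 1794 distal barcodes. Neurod1, the gene of the transgene's name, had 76 UMIs (3.79 CPM) in core neurons and 26 (4.61 CPM) in distal neurons. All 7 OPC markers and all 11 astrocyte markers had at least 3 UMIs in the distal classes of those names. The same held in distal oligodendrocytes and neurons, so it does not set the classes apart. OPC markers summed to 8026 CPM in distal OPC and 2673 CPM in distal neurons, the next highest named class. Astrocyte markers summed to 8289 CPM in distal astrocytes and 4133 CPM in distal fibroblasts, the next highest. Classes were named by these markers, so the sums do not test the names. A cluster of 95 distal barcodes rich in Apoa1 and Alb, liver genes that spinal cord cells should not make, was used as a gauge of free RNA. It held 75 UMIs of the family, and 1 barcode had 23 of them, so it is a coarse gauge. Its family level, 685 CPM, lay above those of distal oligodendrocytes (247 CPM), fibroblasts (519 CPM) and neurons (564 CPM). It is therefore not a floor, and a level not above it cannot be read as free RNA alone.

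Promoter sequences are shown first for the 4 genes highest in OPC relative to oligodendrocytes, among those with at least 20 UMIs over both, and for Tnc, the gene highest in astrocytes relative to OPC. RefSeq start sites (GRCm38.p6) were found for 8 of the 9 genes, and for Tnc the more upstream of 2 is used. Each run is the 250 bases before a start site, 5′ to 3′ on the gene's strand, and capitals mark ACAAAG or ACAAT (cores bound by Sox factors) or TATAAA on either strand.
Tnr (chr1:159523519-159523768, plus strand): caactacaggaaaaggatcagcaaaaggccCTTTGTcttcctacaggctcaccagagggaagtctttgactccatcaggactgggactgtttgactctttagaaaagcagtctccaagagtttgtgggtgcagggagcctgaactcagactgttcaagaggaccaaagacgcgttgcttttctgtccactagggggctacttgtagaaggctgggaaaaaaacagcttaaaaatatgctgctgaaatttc
Vcan (chr13:89742513-89742762, minus strand): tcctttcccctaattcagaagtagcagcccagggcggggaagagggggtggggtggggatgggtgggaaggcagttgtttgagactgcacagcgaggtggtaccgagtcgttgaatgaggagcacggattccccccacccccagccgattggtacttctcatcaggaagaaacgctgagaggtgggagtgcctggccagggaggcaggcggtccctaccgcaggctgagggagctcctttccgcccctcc
Ptprz1 (chr6:22875252-22875501, plus strand): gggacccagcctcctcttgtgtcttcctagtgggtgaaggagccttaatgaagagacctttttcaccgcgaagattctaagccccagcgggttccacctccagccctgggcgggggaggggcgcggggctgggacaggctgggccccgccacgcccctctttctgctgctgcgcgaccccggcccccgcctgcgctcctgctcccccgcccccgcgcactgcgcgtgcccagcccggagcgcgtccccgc
Cspg4 (chr9:56864854-56865103, plus strand): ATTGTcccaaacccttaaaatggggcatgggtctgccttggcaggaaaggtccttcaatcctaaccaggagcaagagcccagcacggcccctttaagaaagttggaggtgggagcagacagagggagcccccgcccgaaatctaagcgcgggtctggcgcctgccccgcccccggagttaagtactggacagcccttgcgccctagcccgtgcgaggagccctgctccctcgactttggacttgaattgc
Tnc (chr4:64047016-64047265, minus strand): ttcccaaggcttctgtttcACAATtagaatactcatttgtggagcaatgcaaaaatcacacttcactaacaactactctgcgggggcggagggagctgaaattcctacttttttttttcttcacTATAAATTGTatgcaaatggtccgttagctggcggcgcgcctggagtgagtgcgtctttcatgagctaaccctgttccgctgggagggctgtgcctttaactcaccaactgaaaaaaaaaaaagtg
Tnr held 1 ACAAAG, read as CTTTGT, a motif found in 16.5% of 32851 RefSeq promoters of the same length. Cspg4 held 1 ACAAT, present in 27.7% of promoters. Vcan and Ptprz1 held neither. Tnc held 2 ACAAT and 1 TATAAA (12.4% of promoters), and the TATAAA shares a base with the reverse of ACAAT. The GC box GGGCGG (32.7% of promoters) occurred 2 times in each of Vcan, Ptprz1 and Cspg4 and 0 times in Tnr, whose window had the lowest GC content of the 5 genes after Tnc, at 46.8% against 44.8%. The E-box CANNTG (66.2% of promoters) occurred 1 time in Vcan, 3 times in Tnc and 0 times in the other 3 windows.

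Each lectican gene lies beside a gene of a hyaluronan link protein, which locks lecticans to hyaluronan. Annotated ends of Acan (chromosome 7, 79053483 to 79115099, GRCm38) and Hapln3 lie 2 bases apart, Ncan and Hapln4 2222, Bcan and Hapln2 21519, and Vcan and Hapln1 43659. Tnr spans 408 kb of chromosome 1 (159523769 to 159931729) and is overlapped on its own strand by Gm10530, so molecules from the overlap could be assigned to either or to neither.

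Over whole libraries, all barcodes included, Tnr was the most counted of the 9 genes in both regions. It gave 11464 UMIs or 376 CPM (369 to 383) in the core and 9180 UMIs or 482 CPM (472 to 492) in the distal library. Tnr made up 58.3% of the family's 19664 core UMIs and 54.2% of its 16938 distal UMIs. The family as a whole stood at 645 CPM in the core and 889 CPM in the distal library, a core-to-distal ratio of 0.726 (0.711 to 0.741). Behind that small difference the genes went in opposite directions. Cspg4 was at 0.689 CPM in the core and 13.3 in the distal library, 19.3-fold higher in the latter (12.3 to 31.7). Tnc was at 1.58 and 15.8 CPM, 10.0-fold higher in the distal library (7.38 to 13.9), and Vcan at 11.4 and 101 CPM, 8.91-fold higher (7.94 to 10.0). Acan was at 10.1 and 2.99 CPM, 3.37-fold higher in the core (2.53 to 4.55), and Bcan at 123 and 70.4 CPM, 1.75-fold higher in the core (1.64 to 1.87). Vcan and Cspg4 had their highest levels in OPC, and Tnc in astrocytes, and the core library held 3 and 51 nuclei of those classes. In such whole-library sums, fewer nuclei of a type and less RNA per nucleus cannot be told apart.

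By class, the family's UMIs in the distal library lay mostly in glial progenitors, neurons and the mixed clusters. OPC were 4.53% of distal nuclei and held 22.8% (22.2 to 23.5) of the 16936 family UMIs in kept nuclei, and committed precursors were 1.48% of nuclei and held 9.88% (9.43 to 10.3). Oligodendrocytes, by contrast, were 23.4% of nuclei and held 4.95% (4.63 to 5.29). Neurons were 26.4% of nuclei and held 18.8%, astrocytes were 8.01% and held 7.19%, and fibroblasts were 5.56% and held 1.59%. Mixed clusters held 32.2%. Of all distal UMIs, neurons had 29.6%, mixed clusters 36.2%, oligodendrocytes 17.8% and fibroblasts 2.72%, so these held less of the family than of all RNA. OPC had 3.54%, committed precursors 1.42% and astrocytes 5.38% of all UMIs, and held more. In the core, neurons held 66.8% (66.2 to 67.5) of 19663 family UMIs with 54.1% of nuclei and 65.9% of all UMIs. Background-like barcodes held 19.3% with 20.5% of all UMIs, so that neither stood far from its share of all RNA.

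**Figure D1:**
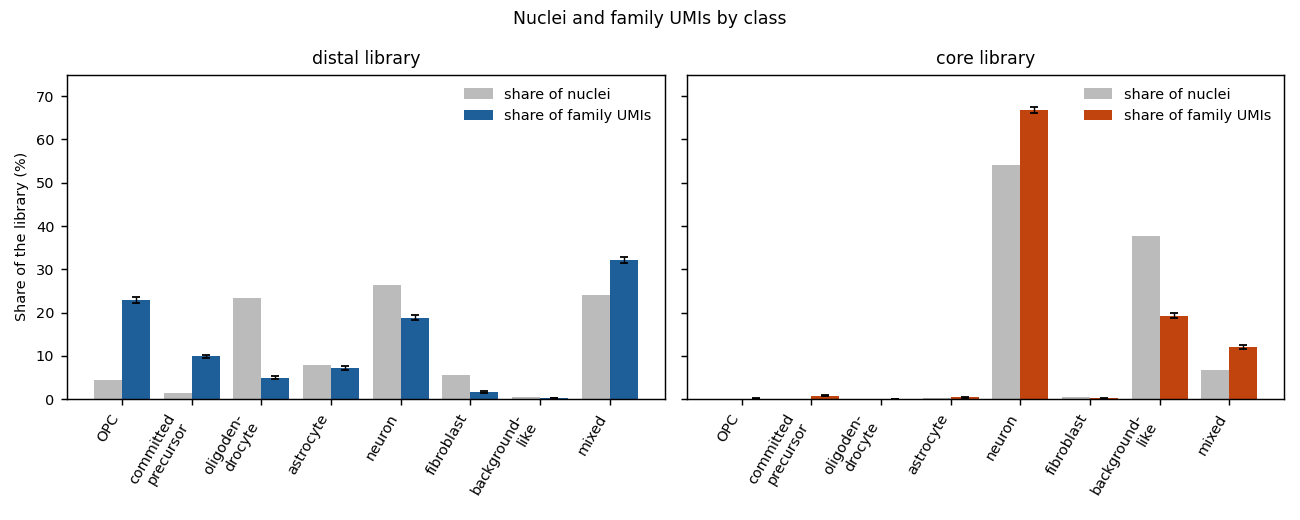
Share of nuclei (grey) and of family UMIs (coloured, with exact 95% binomial intervals) by class, in percent of each library, distal left and core right. OPC and committed precursors hold 22.8% and 9.88% of distal family UMIs from 4.53% and 1.48% of nuclei, and core neurons hold 66.8%.

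Shares by gene differed. Of the distal Cspg4 UMIs, OPC held 42.7% (36.5 to 49.0), and of Vcan 38.3% (36.2 to 40.6). Of Tnc, astrocytes held 38.2% (32.7 to 44.0) and OPC 8.64%. Of Tnr, OPC held 22.8% and committed precursors 15.5%. Of Ncan and Acan, neurons held the largest share, 41.6% (34.9 to 48.6) of 209 UMIs and 45.6% (32.4 to 59.3) of 57 UMIs. Of Bcan, mixed clusters held the largest share, 32.1% (29.6 to 34.7). Neurons (27.6%), astrocytes (13.3%), OPC (9.63%) and committed precursors (6.79%) came next. The neurons' 29.6% of all distal UMIs lay within the interval of their Bcan share (25.2 to 30.1). Mixed clusters also held the largest share of Tnr, 32.6%. Their share by gene ran from 28.1% (Acan) to 37.4% (Cspg5), with 36.2% of all distal UMIs.

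Distal OPC had the family at 5739 CPM (5559 to 5922), 23.2-fold above oligodendrocytes (21.6 to 25.1), 8.38-fold above the liver-gene barcodes (6.67 to 10.7) and 4.84-fold above astrocytes (4.53 to 5.16). With nuclei classed one by one by their markers the level in OPC was 2843 CPM and that in oligodendrocytes 394 CPM. Against oligodendrocytes, 8 of the 8 members with enough counts to compare were at least 1.5-fold higher in OPC, where 20.5% of 9877 genes were. Against astrocytes 5 of 8 were higher and 1, Tnc, was lower, where 12.3% and 23.6% of 9250 genes were. After thinning each nucleus to 1000 UMIs, an OPC nucleus carried a median of 3 of the 9 genes, an astrocyte or a liver-gene barcode 1 and 0, and 58.6% of OPC nuclei carried 3 or more, against 0.818% of neurons.

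Of the lecticans, Vcan was at 1096 CPM in OPC (1018 to 1178) from 739 UMIs, 27.2-fold above oligodendrocytes (40.4 CPM), 14.2-fold above astrocytes (77.0 CPM; 11.3 to 18.2) and 10.0-fold above the liver-gene barcodes (109.5 CPM; 5.69 to 19.5). Of OPC nuclei 75.4% had a Vcan UMI, or 64.0% after thinning, against 7.46% and 3.62% of oligodendrocytes. Median depths of these classes were 1533 and 1699 UMIs. Bcan was at 191 CPM, 8.02-fold above oligodendrocytes (6.03 to 10.7) and 1.10-fold above astrocytes (0.872 to 1.39), so OPC and astrocytes did not differ in Bcan beyond counting error. Ncan was at 17.8 CPM from 12 UMIs and Acan at 14.8 CPM from 10 UMIs, each in no more than 3.26% of nuclei.

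The membrane proteoglycans were all higher in OPC than in astrocytes. Ptprz1 was at 963 CPM (890 to 1040) in OPC and at 456 CPM (416 to 499.7) in astrocytes, a ratio of 2.11 (1.87 to 2.38), with 155 CPM in the liver-gene barcodes. Cspg4 was at 160.2 CPM (131 to 193) from 108 UMIs, 27.4-fold above astrocytes (12.2 to 76.2) and 20.9-fold above oligodendrocytes (13.5 to 33.4). No other class of at least 50 nuclei passed 20 CPM of Cspg4. Smaller classes cannot be judged: 49 core endothelial nuclei had 2 UMIs, or 22.5 CPM (2.73 to 81.4). Nuclei with mural markers had 2 UMIs in 7 core nuclei and 1 UMI in 32 distal ones. Cspg5 was at 157 CPM, 2.15-fold above astrocytes (1.58 to 2.93).

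The tenascins split between the glial classes. Tnr reached 3099.9 CPM (2968 to 3236) in OPC, with a UMI in 95.5% of nuclei (91.4% after thinning) and up to 33 UMIs in 1 nucleus. It stood at 265 CPM (235 to 299) in astrocytes, as against 265 CPM (177 to 380.1) in the liver-gene barcodes, where 1 barcode held 12 of the 29 UMIs, so whether astrocytes exceeded free RNA in Tnr cannot be read from this gauge. Tnc went the other way, with 38.6 CPM (25.2 to 56.5) in OPC and 112 CPM (92.6 to 135) in astrocytes, 2.91-fold higher in astrocytes (1.89 to 4.64). The liver-gene barcodes had 2 Tnc UMIs, or 18.3 CPM (2.21 to 65.9).

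**Figure D2:**
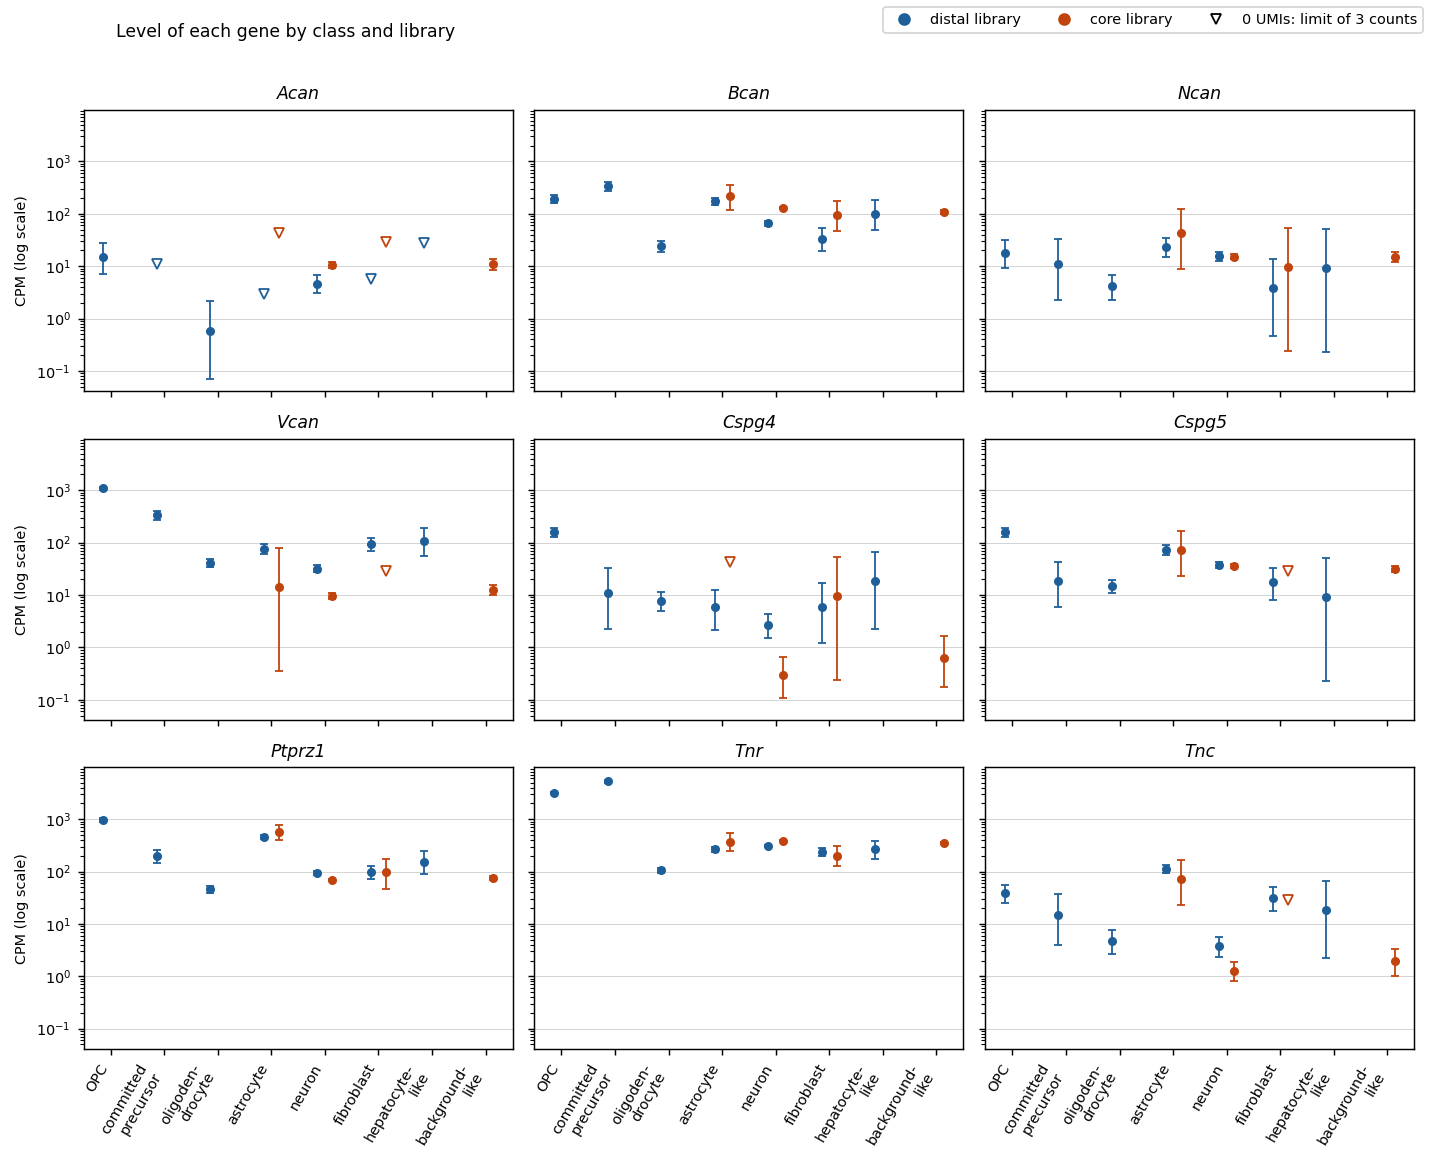
CPM of each gene (log scale) by class, distal library in blue and core library in orange, with exact Poisson 95% intervals, for the classes shown where they had at least 50 nuclei. Endothelial nuclei (92 in the distal library) and mixed clusters are not drawn. Open triangles mark 0 UMIs, at the level 3 counts would give. Tnr, Vcan, Ptprz1 and Cspg4 peak in the progenitor classes on the left and Tnc in astrocytes. Hepatocyte-like barcodes, a gauge of free RNA, and background-like barcodes stand at the right.

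From OPC to committed precursors, the transient stage that leaves division and starts to make myelin genes, the family stood at 5739 and 6178 CPM, a ratio of 1.08 (1.02 to 1.14) that turned to 0.967 at a clustering resolution of 0.5 and to 0.697 with the highest 5% of doublet scores removed. Tnr rose from 3099.9 to 5258 CPM (4989 to 5539), 1.70-fold (1.58 to 1.82), and Bcan from 191 to 336 CPM, 1.76-fold (1.33 to 2.31). Tnr alone made up 54.0% of the family's UMIs in OPC and 85.1% (83.3 to 86.8) in committed precursors. Over the same step Cspg4 went from 160.2 to 11.1 CPM (3 UMIs), Cspg5 from 157 to 18.5 CPM, Ptprz1 from 963 to 196 CPM and Vcan from 1096 to 332 CPM. Ptprz1 then lay at 1.26 times the liver-gene barcodes (0.719 to 2.32). The 4 genes were 14.5-fold (4.82 to 71.2), 8.52-fold (3.54 to 26.8), 4.92-fold (3.71 to 6.64) and 3.30-fold (2.65 to 4.15) lower. Tnc, at 38.6 and 14.8 CPM from 26 and 4 UMIs, was 2.61-fold lower with an interval that includes 1 (0.906 to 10.3). In all, 2 of 7 comparable members were at least 1.5-fold higher and 5 lower, where 15.3% and 23.1% of 6606 genes were.

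In oligodendrocytes every member was below its level in OPC, among those with enough counts. From committed precursors to oligodendrocytes Tnr fell to 105 CPM (94.5 to 117), a ratio of 50 (44.5 to 56.3), below the 265 CPM of the liver-gene barcodes. Bcan fell 14.1-fold (10.3 to 19.2) and Vcan 8.23-fold (6.24 to 10.8). Cspg4 and Cspg5 had no further step that counting error would allow to be seen, with ratios of 1.45 (0.280 to 4.72) and 1.25 (0.390 to 3.12). Among the 3 oligodendrocyte clusters, Tnr was at 105, 95.2 and 153 CPM in clusters 3, 12 and 28. With the nuclei of the highest 5% of doublet scores removed, the committed group took in 85 nuclei of the oligodendrocyte class with Tnr at 158 CPM, and the step from OPC became 1.09-fold for Tnr and 1.03-fold for Bcan. The 107 committed precursors it kept had Tnr at 5688 CPM.

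**Figure D3:**
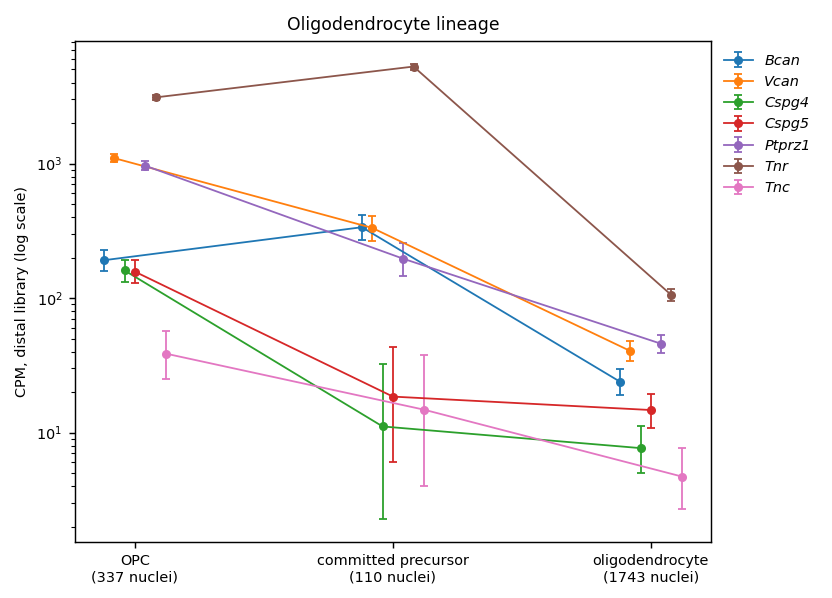
CPM (log scale) of 7 genes in OPC, committed precursors and oligodendrocytes of the distal library, with exact Poisson 95% intervals. Tnr and Bcan peak in committed precursors at 5258 and 336 CPM, and Vcan, Ptprz1, Cspg4 and Cspg5 are highest in OPC.

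In the core, 25 committed precursors gave the only progenitor values. They had 131 Tnr UMIs, 3770.3 CPM (3152 to 4474), in 88.0% of nuclei, and 12 Bcan UMIs, 345 CPM (178 to 603). Core over distal, Tnr was at 0.717 (0.595 to 0.858), Bcan at 1.03 (0.512 to 1.88) and Vcan, with 4 UMIs, at 0.346 (0.0924 to 0.918). Only Vcan of 4 comparable members passed 1.5-fold, where 22.2% of 2886 genes were higher and 32.1% lower by that rule. Neuron markers summed to 7742 CPM in these core nuclei and to 2736 CPM in the distal ones, and their part in the result was not tested.

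Distal astrocytes had the family at 1187 CPM (1121 to 1255), and 38.5% of its UMIs were from Ptprz1. Against neurons, Tnc was 30.1-fold higher (18.8 to 50.5; 112 against 3.73 CPM), Ptprz1 4.96-fold (4.36 to 5.63), Bcan 2.64-fold (2.20 to 3.17), Vcan 2.43-fold and Cspg5 1.94-fold. Of the comparable members 6 of 7 were higher and 0 lower, where 33.0% and 20.4% of 10675 genes were. Acan had 0 UMIs in 596 astrocytes, which allows up to 2.92 CPM by a limit of 3 counts. Against the liver-gene barcodes, Tnc was 6.14-fold higher (1.66 to 51.3), Cspg5 8.01-fold (1.40 to 321) and Ptprz1 2.94-fold (1.82 to 5.09). Bcan, at 1.73 (0.943 to 3.53), and Vcan, at 0.703 (0.381 to 1.42), were not above that gauge beyond counting error. The gauge had Bcan at 100.4 CPM, above the 23.9 CPM of oligodendrocytes and the 32.8 CPM of fibroblasts, so it does not mark the lowest level. Oligodendrocyte markers summed to 7755 CPM in the distal astrocytes and 19106 CPM in oligodendrocytes, and their part in these values was not tested.

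The 2 astrocyte clusters carried nearly the same family total and a different make-up. Cluster 15 (393 distal nuclei, led by A2m and Gfap, an intermediate filament of reactive astrocytes) had 1178 CPM, and cluster 21 (203 nuclei, led by Trp63, the glutamate transporter Slc1a2 and Slc7a10) had 1202 CPM, a ratio of 0.980 (0.871 to 1.10). Tnc was at 168 CPM in cluster 15 and 16.0 CPM in cluster 21, 10.5-fold apart (4.66 to 29.2). Ncan was at 33.8 and 5.33 CPM, 6.35-fold higher in cluster 15 with 2 UMIs in cluster 21 (1.56 to 55.7). Tnr was at 339.9 and 136 CPM, 2.50-fold higher (1.84 to 3.46), and Vcan at 96.9 and 42.6 CPM, 2.27-fold higher (1.30 to 4.21). The liver-gene barcodes had Tnr at 265 CPM, above cluster 21, and Vcan at 109.5 CPM, above both clusters. The part of free RNA in the Tnr and Vcan differences was not tested. Cluster 21 had more Cspg5, Ptprz1 and Bcan, and Cspg4 had 5 and 1 UMIs in clusters 15 and 21, too few to compare. Cspg5 was at 141 CPM there and 33.8 CPM in cluster 15, 4.18-fold higher (2.50 to 7.21), Bcan at 251 and 129 CPM, 1.94-fold higher (1.43 to 2.64), and Ptprz1 at 608 and 369 CPM, 1.65-fold higher (1.37 to 1.98). By the 1.5-fold rule 4 of 7 members were higher in cluster 15 and 3 lower, where 17.1% and 13.4% of 7511 genes were.

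**Figure D4:**
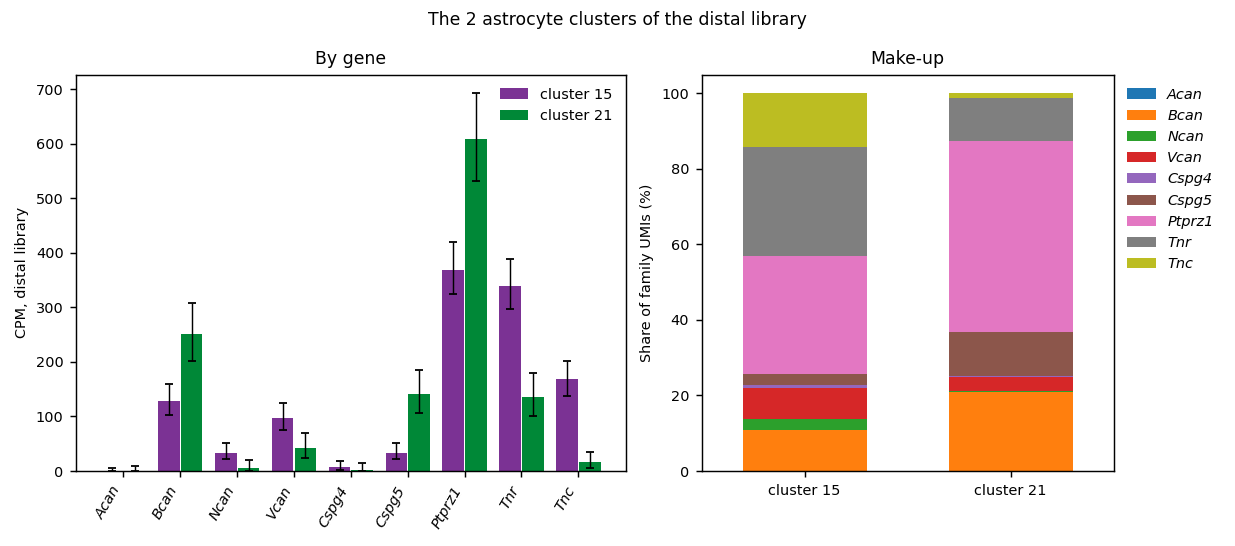
Left, CPM of each gene in astrocyte clusters 15 and 21 of the distal library, with exact Poisson 95% intervals; right, the share of each gene in the cluster's family UMIs. Tnc (168 against 16.0 CPM) and Tnr are higher in cluster 15, and Cspg5, Bcan and Ptprz1 in cluster 21.

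Core astrocytes numbered 51, of which 41 were in cluster 21 and 10 in cluster 15, so that a comparison of regions over the whole class sets mainly cluster 21 against mainly cluster 15. Ptprz1 had 39 UMIs, 556 CPM (396 to 760.3), against 456 CPM in the distal class, a ratio of 1.22 (0.855 to 1.69). Bcan was at 214 and 174 CPM, a ratio of 1.23 (0.675 to 2.09), and Tnc at 71.3 and 112 CPM from 5 and 115 UMIs, a ratio of 0.636 (0.203 to 1.53). No member differed between the regions beyond counting error. By the fold alone 1 of 7 was higher and 2 lower, where 23.2% and 35.7% of 7747 genes were. Within cluster 21, Ptprz1 was at 625 CPM in the core and 608 CPM in the distal library, a ratio of 1.03 (0.699 to 1.47). Tnr was at 375 and 136 CPM there, 2.76-fold higher in the core (1.58 to 4.67), where background-like core barcodes had 350.2 CPM. Of 4 comparable members, Tnr was the 1 above 1.5-fold, and Cspg5, with 5 core UMIs, the 1 below (0.632, 0.197 to 1.57), where 21.2% of 4169 genes were higher and 31.5% lower. Tnr of core astrocytes as a class was 1.06 times that of background-like barcodes (0.690 to 1.56), and Ptprz1 7.35 times (5.16 to 10.2). The 5 Tnc UMIs of core astrocytes made 71.3 CPM (23.2 to 166) against 1.92 CPM in background-like barcodes, 37.2-fold higher (10.3 to 113).

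Neurons carried less of the family per UMI than progenitors and astrocytes, 655 CPM (643 to 666) in the core and 564 CPM (544 to 584) in the distal library. Tnr was at 382 and 310.0 CPM, Bcan at 129.8 and 65.7, Ptprz1 at 69.5 and 92.1, Cspg5 at 36.0 and 37.8, Ncan at 15.2 and 15.4, and Acan, the main lectican of perineuronal nets, at 10.7 and 4.61 CPM. In the core these lay close to the background-like barcodes. Of the 7 comparable members, 0 differed by 1.5-fold between neurons and those barcodes, where 6.67% of 9184 genes did. The widest gap was Vcan, at 0.757 (0.580 to 0.997). Neuron markers summed to 13378 CPM in those barcodes and to 13394 CPM in core neurons. A group so alike cannot show whether neuron levels exceed free RNA, and what those barcodes hold was not tested. Bcan was 1.20-fold higher in neurons (1.10 to 1.30) and Tnr 1.09-fold (1.04 to 1.15). After thinning, 28% of core neurons and 28.5% of background-like barcodes had a Tnr UMI. In the distal library the ratio of neurons to liver-gene barcodes was 1.17 (0.813 to 1.75) for Tnr, 0.654 (0.361 to 1.32) for Bcan, 0.594 (0.367 to 1.03) for Ptprz1 and 0.290 (0.162 to 0.572) for Vcan. For Cspg5, with 1 UMI in the gauge, it was 4.14 (0.735 to 164), and for Tnc, with 2, it was 0.204 (0.0499 to 1.80).

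Neurons are compared between regions cluster by cluster, since the clusters that fill the class differ: cluster 1 held 4473 of 8847 core neurons and 72 of 1964 distal ones, and cluster 14 held 40 and 408. Clusters 8, 19 and 23 had a marker of a further class and none of their own among their 10 leading genes. Over the remaining neurons, Bcan was at 135 CPM in the core and 70.2 CPM in the distal library, 1.92-fold higher in the core (1.72 to 2.15). Acan was at 11 and 4.64 CPM, 2.36-fold higher (1.54 to 3.77), and Vcan at 9.28 and 32.3 CPM, 3.48-fold higher in the distal library. Tnr was at 391 and 319 CPM, a ratio of 1.23 (1.16 to 1.29), and Ptprz1 at 70.2 and 92.3 CPM, a ratio of 0.760 (0.684 to 0.846). By the 1.5-fold rule 2 of 7 members were higher in the core and 1 lower, where 5.57% and 11.7% of 9613 genes were.

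Cluster by cluster the same directions were seen with other sizes. There were 8 neuron clusters with at least 50 nuclei in both libraries, clusters 8 and 23 among them. Bcan was higher in the core in 8 of 8, with an interval above 1 in 5, and without clusters 8 and 23 in 6 of 6, with an interval above 1 in 4. Vcan was lower in the core in 8 of 8 and in 6 of 6, with an interval below 1 in the same 4 clusters. Tnr was higher in 7 of 8 and in 5 of 6, with an interval above 1 in 2. Acan was higher in 6 and lower in 1, and none of its intervals excluded 1. In cluster 1 itself Bcan was at 169 CPM in the core and 134 CPM in the distal library. Its ratios ran from 1.26 in cluster 1 (0.913 to 1.80) to 5.33 in cluster 13 (3 distal UMIs; 1.72 to 26.8) over the 6 clusters, with 1 distal UMI in cluster 8 and 2 in cluster 23. Background-like core barcodes had Bcan at 108 CPM and Vcan at 12.6 CPM. The distal liver-gene barcodes had Bcan at 100.4 CPM (50.1 to 179.6) and Vcan at 109.5 CPM. The part of free RNA in the differences between regions was not tested. Hoxd11, a gene of caudal cord segments, had 392 UMIs in core neurons and 0 in distal ones, so that injury region and level along the cord cannot be told apart.

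**Figure D5:**
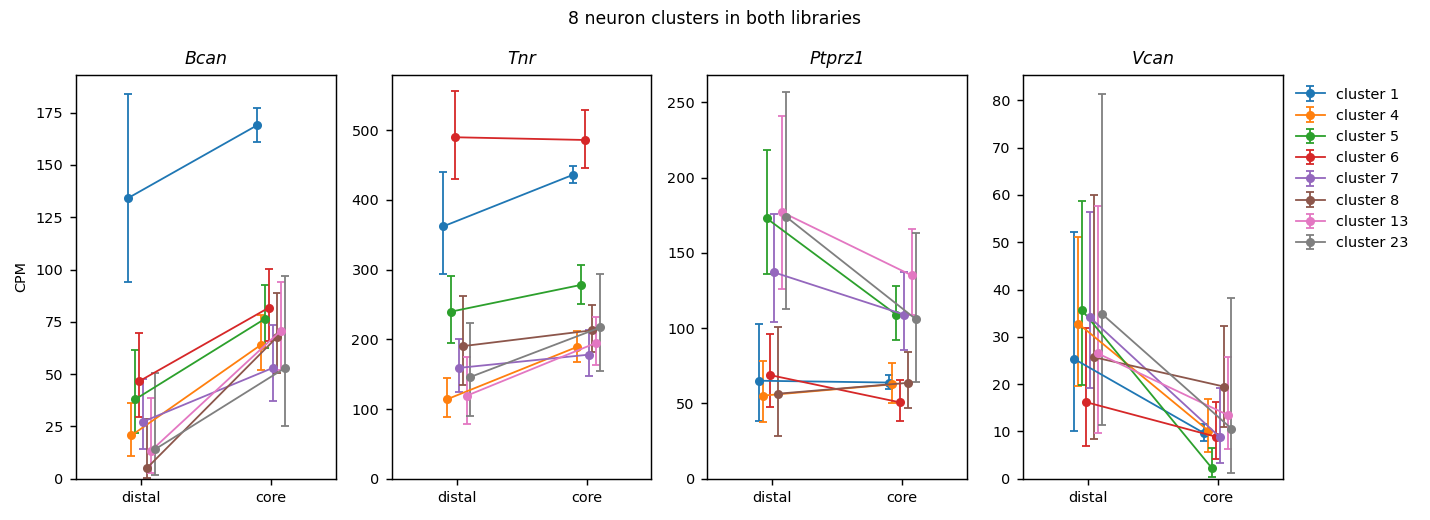
CPM (each panel with its own linear axis from 0) of 4 genes in the 8 neuron clusters, 8 and 23 included, with at least 50 nuclei in both libraries, distal left and core right, with exact Poisson 95% intervals. Bcan is higher and Vcan lower in the core in 8 of 8 clusters, and Tnr is higher in 7 of 8.

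Neurons were also grouped by transmitter genes. In the core, excitatory nuclei (761, with a UMI of the glutamate transporters Slc17a6 or Slc17a8 alone) had Tnr at 454 CPM (425 to 485), inhibitory nuclei (2079, with a UMI of Slc32a1, Slc6a5, Gad1 or Gad2 alone) at 365 CPM (350.0 to 381) and cholinergic nuclei (99, with a UMI of Chat, Slc5a7 or Slc18a3) at 549 CPM (475 to 631). Inhibitory over excitatory, Tnr was at 0.804 (0.744 to 0.871) in the core and 0.828 (0.712 to 0.964) in the distal library, where 6.04% and 21.5% of genes passed 1.5-fold. With at least 2 UMIs of the type required (613 inhibitory and 107 excitatory core nuclei), the core ratio was 0.853, with an interval that includes 1 (0.720 to 1.02). Cholinergic over inhibitory, Tnr was at 1.5 (1.29 to 1.74), where 27.3% of genes passed 1.5-fold. Acan was at 12.6 CPM in core excitatory and inhibitory nuclei alike, a ratio of 0.997 (0.625 to 1.64), and had 1 UMI in cholinergic nuclei, a ratio to excitatory ones of 0.221 (0.00539 to 1.35). Core Vcan, at 6.97 CPM in inhibitory and 11.6 CPM in excitatory nuclei, had a ratio of 0.602 (0.352 to 1.05). Distal Bcan was at 89.9 CPM in inhibitory and 55.0 CPM in excitatory nuclei, 1.63-fold apart (1.15 to 2.36), and the core ratio was 1.13 (0.976 to 1.31). Most neurons, 5711 in the core and 1287 in the distal library, had no UMI of any of these genes.

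Fibroblasts, the collagen-making cells of meninges and scar, had the family at 519 CPM (459 to 585) in the distal library, 0.758 times the liver-gene barcodes (0.585 to 0.993). Vcan, at 94.5 CPM (69.9 to 125), Tnr, at 237 CPM, and Ptprz1, at 96.5 CPM, were none of them above that gauge. Tnc was at 30.9 CPM from 16 UMIs, a ratio to the gauge of 1.69 (0.398 to 15.2). The 79 core fibroblasts had 0 UMIs of Vcan and of Tnc, against 49 and 16 in 414 distal ones. For Vcan the distal level was at least 2.57-fold higher by its interval. Bcan was at 95.9 CPM in the core and 32.8 CPM in the distal library, 2.92-fold higher in the core (1.20 to 6.76), with 108 CPM in background-like core barcodes. These were the 1 of 4 members lower and the 1 higher in the core, where 29.8% and 19.1% of 5867 genes were.

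UMI shares may not compare levels of different genes. An order per kilobase of annotated gene, exons and introns together, is given beside them, because nuclear RNA holds unspliced transcripts. In 3′ libraries UMIs need not scale with gene length, and whether introns were counted is not given. Which order reflects the levels was not tested. In distal OPC the order per kilobase was Bcan (15.1 CPM per kb), Vcan (12.6), Cspg5 (8.37), Tnr (7.60) and Ptprz1 (5.43), whereas Tnr ranked first by UMIs and first per kilobase of exon (241 CPM per kb). In distal astrocytes Bcan ranked first on both length scales, with 13.7 CPM per kb of gene and 42.7 per kb of exon, and Ptprz1 first by UMIs.

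The enzymes, link proteins and partners of the family, from lists of related genes, showed the class differences of the core proteins in part. Of the 12 enzymes that start and extend chondroitin chains, 10 reached 10 CPM in some class. Xylt1, which adds the first sugar of the chain, was at 1988 CPM in distal OPC, 117 CPM in astrocytes and 329 CPM in committed precursors, 17.0-fold higher in OPC than in astrocytes (14.1 to 20.6). Of 9 tested in that comparison 2 were higher and 1 lower, with a median log2 ratio of -0.07 against -0.12 for all genes. Chsy3, a chain polymerase, was highest in committed precursors, at 790.2 CPM, 4.16-fold above OPC (3.33 to 5.22). Of 4 comparable sulfotransferases and epimerases 3 were higher in OPC than in astrocytes and 0 lower (median log2 1.95), where 12.3% of all genes compared were higher and 23.6% lower. Chst11, a 4-O-sulfotransferase, was at 550.3 CPM in OPC, 118 in astrocytes and 66.5 in committed precursors, and Ust, a uronyl 2-O-sulfotransferase, at 448, 76.1 and 2123 CPM.

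Other lists held less. Of the 4 link proteins 2 reached 10 CPM. Hapln2, a link protein of nodes of Ranvier, was at 386 CPM in distal oligodendrocytes and 153 CPM in OPC, with 237 CPM (155 to 348) in the liver-gene barcodes. Hapln4, known from perineuronal nets, was at 22.4 CPM in core and 7.74 CPM in distal neurons without clusters 8, 19 and 23, 2.90-fold higher in the core (2.09 to 4.11). Background-like core barcodes also had Hapln4 at 22.4 CPM (18.8 to 26.4). Hapln2 was 6.82-fold higher in the distal neurons, and the oligodendrocyte markers summed to 2039 CPM in distal and 309 CPM in core neurons; their part was not tested. Of 4 comparable proteases of the Adamts group that cut lecticans, 0 were higher and 3 lower in OPC than in astrocytes, where 12.3% of all genes compared were higher and 23.6% lower. Adamts9 was at 237 CPM in astrocytes and 57.8 CPM in OPC, and within astrocytes at 303 CPM in cluster 15 and 123 CPM in cluster 21. The hyaluronan receptor Cd44 was at 61.4 CPM in astrocytes with 1 UMI in OPC, and 6.69-fold higher in cluster 15 than in cluster 21 (2.71 to 21.4). Of the receptors of chondroitin chains, Ptprs, which binds them on axons, was at 585 CPM in core and 362 CPM in distal neurons without those clusters, 1.62-fold higher in the core (1.54 to 1.70). This ratio pools neuron clusters that fill the regions unequally, and no value by cluster is given. Background-like core barcodes had Ptprs at 459 CPM and the distal liver-gene barcodes at 256 CPM, and the part of free RNA was not tested. Among partners of Ptprz1 and the tenascins, the tenascin-C receptor subunit Itga9 was at 722 CPM in OPC and 39.0 CPM in astrocytes, 18.5-fold apart (13.4 to 26.2), and the adhesion protein Nfasc at 4176 CPM in committed precursors and 485 CPM in OPC, 8.61-fold apart (7.61 to 9.77).

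Across 24 named clusters of at least 50 nuclei, both libraries pooled, the genes whose levels ran most like each member's were named by Pearson's r of log2(CPM + 1). These clusters share libraries, depth and free RNA, so r is given as a description with no p. Vcan ran with Sox6 (0.882) and C1ql1 (0.841), and Cspg4 with Vcan (0.834) and Pdgfra (0.828), the growth factor receptor of OPC. Tnc ran with Tsc22d4 (0.858) and Gfap (0.830). Ptprz1 ran with Gm3764 (0.859) and Stk32a (0.822), Bcan with Nrcam (0.792), Cntn1 (0.779) and Tnr (0.761), and Tnr with Inava (0.777) and Shc4 (0.772). Ncan ran with Sntg2 (0.783), Cspg5 with Nrxn2 (0.790) and Acan with Pde8b (0.753). Between members, the pairs ran from -0.43 for Acan and Tnc to 0.83 for Vcan and Cspg4.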

How the data were processed

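Nuclei of injury core and distal spinal cord were sequenced on the 10x 3′ platform. The deposited values are raw UMI counts per gene and barcode, made with Cell Ranger 7.1.0 per the file headers. Seurat, GRCh38 and mm10 also stand in the submitters' processing notes, with no role. Whether introns were counted, and the annotation, are not given in the sources used here. Gene positions and lengths are from GENCODE M21 on GRCm38.

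Barcodes under 300 genes or over 5% mitochondrial UMIs were dropped, which left 16360 core and 7443 distal. Scrublet (scanpy 1.11.5, Python 3.11.15) called 0 doublets, which is a failed run, and no doublet was removed. Counts scaled to 10000 per nucleus, logged, 2000 variable genes without the 9 members, 40 components and 15 neighbours gave Leiden clusters (leidenalg 0.10.2, resolution 1), and non-neuronal nuclei were clustered again, for 36 clusters in all. Each took the class with the highest mean log2 marker fold. Rules for setting aside background-like, mixed, blood or liver and unnamed clusters were chosen with the data in view. The members and lists were chosen with earlier results of these data known.

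CPM are summed UMIs of a class over all its UMIs. Levels carry exact Poisson, shares exact Clopper-Pearson and ratios exact conditional 95% intervals. A gene was compared with at least 10 CPM in 1 group and 20 UMIs over both, and called at 1.5-fold. Classes needed 50 nuclei; core committed precursors and core cluster 21 are given below that. A count of 0 was given a limit of 3 counts. No count model was run, since there was 1 library per region. Thinning to 1000 UMIs left out 5181 core and 1507 distal nuclei. All 9 members were named, and of each list at most the 3 highest genes and 2 per direction and comparison. The ratio code was tested on simulated data.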

Additional observations from a re-analysis of the deposited data

How the results depend on the processing

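No paired analysis was possible because each region gave 1 library. Classing nuclei one by one by their markers, which spreads background-like and mixed barcodes over the classes, moved values most. The family's CPM became 2843 in distal OPC, 2945 in committed precursors, 1061 in astrocytes, 601 in neurons and 864 in core astrocytes. Its share of family UMIs became 32.5% for distal OPC, 13.5% for committed precursors, 17.5% for distal neurons and 54.2% for core neurons. The members called higher in core astrocytes became 0, those lower in core fibroblasts 4, and those higher in core neurons, all neuron clusters included, 1. Here and below, the share of all genes called under the altered setting is not given. Such counts therefore show only that the calls depend on the setting, and say nothing about the members against other genes. With the highest 5% of doublet scores removed, committed precursors stood at 3932 CPM and 11.3%, OPC at 24.3%, distal neurons at 19.7% and core neurons at 68.4%. Under that setting 0 members were called higher in committed precursors than in OPC, and the family's ratio turned to 0.697. At resolution 0.5 that ratio was 0.967, committed precursors were at 5716 CPM, distal neurons at 17.9% and core neurons at 65.8%. At resolution 2.0 OPC held 22.1%, committed precursors 10.4% and core neurons 59.8%. With at least 500 genes, OPC were at 5511 CPM and 25.0%, committed precursors at 11.1%, distal neurons at 488 CPM and 12.1%, and 2 members were lower in core fibroblasts. With the members among the variable genes, OPC were at 5299 CPM and 26.4%, core neurons at 68.0%, and 2 members were lower in core fibroblasts; fewer than 50 core astrocytes remained, so no value was given for them. TMM scaling left 0 members higher in core astrocytes, and turned the core-to-distal ratio of neuron Cspg5 from 0.920 to 1.01 and of Ncan from 0.965 to 1.05, both within counting error. No CPM minimum gave 2 members lower in core neurons. Comparisons of committed precursors with OPC, of single neuron clusters and of cluster 21 between regions were added after the data had been seen. Depth limits Acan, Ncan, Cspg4 and Tnc outside the classes where they are highest, and every value in core glia.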
